A study of Anolis chlorocyanus and Anolis cybotes and Anolis osa with 24 samples.

Results

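The genes described here stood modestly higher in leg than in jaw muscle in every numbered pair of libraries of 4 Anolis species. They were chosen by the measured difference itself. Counts were divided by the column total and scaled to CPM (counts per 1000000), and D was the leg value of log2(CPM + 1) minus the jaw value for the same title number. Members had D above 0 in 12 of 12 title numbers and a mean D of at least 0.5 and under 1. This gave 105 of the 25920 identifiers in the table. Every leg against jaw value of these genes is therefore a description, and so are the counts from a fit of that contrast. Only tests of species levels are read as tests.

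Whole jaw muscle and whole leg muscle of males were profiled by RNA sequencing in Anolis sagrei, Anolis osa, Anolis cybotes and Anolis chlorocyanus, with 3 libraries per species and muscle and 24 in all. The title numbers were 15, 16 and 17 in sagrei, 04, 05 and 07 in osa, 01, 03 and 08 in cybotes and 04, 06 and 08 in chlorocyanus, each with a jaw and a leg library. The labels give no age, no treatment and no name of the single muscle taken. Totals ranged from 1315319 to 1962685 counts per library, so that the floor of 3 counts corresponded to between 1.53 and 2.28 CPM, and the leg total was above the jaw total in all 12 numbers.

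Anoles are lizards whose jaw muscles close the mouth in biting and whose leg muscles power running, clinging and jumping. In vertebrates the jaw muscles arise from head mesoderm and the limb muscles from somites, and muscles differ in their mix of fibre types, which carry different myosins, calcium pumps and metabolic enzymes. Muscle tissue also holds connective tissue, vessels, nerve and blood, and in whole muscle fewer cells of a type and less RNA per cell cannot be told apart. The table gives Ensembl-style identifiers without symbols, so the members are named by identifier or by their rank in CPM. Their functions, and the marker genes of muscle and of the other cell types, were not analysed here. CPM is not divided by gene length, and ranks between genes are therefore ranks of reads.

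The members were spread over the range of read counts. Their mean level over 24 libraries had a median of 26.8 CPM, with quartiles of 9.43 and 68.0 CPM, and ran from 1.11 to 1088 CPM. Genes kept by the low-count filter (edgeR's filterByExpr, 9123 genes) had a median of 19.0 CPM and quartiles of 8.08 and 51.0 CPM. Of the members, 29 lay under 10 CPM, 55 between 10 and 100 CPM and 21 over 100 CPM. The class over 100 CPM held 20% of the members and 13.5% of the genes kept. No member was among the 78 genes with the most reads, the highest being 79th of all identifiers. Of the members, 93 had at least 1 count in every library and 12 had a library with 0 counts. Together the members took 0.875% ± 0.112 of the counts of jaw libraries and 1.44% ± 0.205 of those of leg libraries (SD, n = 12), a difference that the rule fixes. The leg share was the larger in all 12 numbers, and within a muscle the species means lay between 0.799% in cybotes and 0.980% in osa for jaw, and between 1.32% in chlorocyanus and 1.56% in osa for leg. The 10 members with the most reads made up 64.6% of the summed CPM of all 105.

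**Figure D1:**
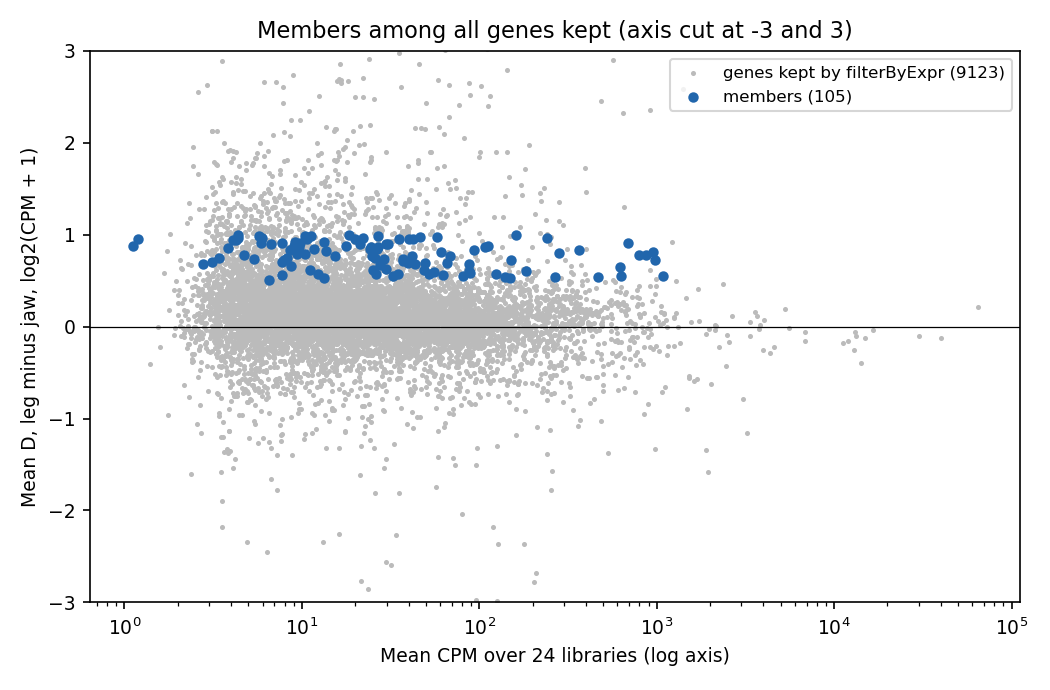
Mean D (leg minus jaw, log2(CPM + 1)) against mean CPM over 24 libraries on a log axis, with 1 point per gene. The 105 members, in blue, form a band between 0.5 and 1 that runs from 1.11 to 1088 CPM, and the 9123 genes kept by the filter are in grey, without those beyond -3 or 3.

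On the scale of CPM the leg excess had a median ratio of 1.75, with quartiles of 1.59 and 1.92. The ratio was the mean CPM of 12 leg libraries over that of 12 jaw libraries, and it ran from 1.42 to 3.83. It was larger where reads were few, with a median of 1.90 under 10 CPM, 1.67 from 10 to 100 CPM and 1.63 over 100 CPM. The pseudocount of 1 CPM lowers D most in the low class. Median mean D was itself larger there, at 0.87 under 10 CPM, 0.76 from 10 to 100 CPM and 0.72 over 100 CPM. The genes kept showed the same order by class. Their median ratio was 1.17, 1.08 and 1.04 from the low to the high class, and their median mean D 0.21, 0.12 and 0.050. The part of the pseudocount, of D and of this trend of all genes in the members' larger ratios was not tested. The highest ratio belonged to the member with the fewest reads, with 0.461 CPM over the jaw libraries and 1.76 CPM over the leg libraries, both around or under the floor. Median D over the members was 0.78, with quartiles of 0.66 and 0.91.

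The edges of the window cut through a continuous range. Just inside the lower edge the members with the smallest mean D stood at 0.507, 0.525 and 0.526, and just outside it genes above 0 in 12 of 12 numbers stood at 0.499, 0.491 and 0.485. At the upper edge the values were 0.998, 0.997 and 0.994 inside and 1.002, 1.005 and 1.009 outside. Of 438 genes above 0 in all 12 numbers, 45 had a mean D under 0.5 and 288 a mean D of at least 1. The sign in every number was the narrower condition. Within the window of mean D lay 1633 genes, and 253 of those not chosen were above 0 in 11 of 12 numbers. Chlorocyanus 06 was the number that failed in 38 of these 253 genes, chlorocyanus 08 in 34 and osa 05 in 31, while osa 04 failed in 4 and cybotes 03 in 8. Among the members, too, the sign was often held narrowly. The smallest D over the 12 numbers was under 0.1 in 55 members and at least 0.3 in 7.

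The size of D varied between title numbers, both within and between species. Cybotes 03 had the highest median D over the members, at 1.0, and cybotes 08 the next, at 0.88. Cybotes 01 stood at 0.62, below osa 04 at 0.78 and sagrei 16 at 0.77. Chlorocyanus 04 had the lowest, at 0.50, and it was the number with the smallest D in 23 of the 105 members. Cybotes 03 and chlorocyanus 04 were also the highest and the lowest number over all genes. Median D over the 9123 genes kept was 0.40 in cybotes 03 and -0.052 in chlorocyanus 04, and 0.0078 to 0.21 in the other 10 numbers. By species, median mean D of the members was 0.90 in cybotes, 0.74 in sagrei, 0.67 in osa and 0.62 in chlorocyanus. Taken as the excess over the median of the genes kept in the same species, these became 0.65 in cybotes, 0.59 in chlorocyanus and 0.58 in both osa and sagrei. Over all species the excess was 0.65, from a median of 0.13 for the genes kept. Cybotes held the largest mean D in 54 members (51.4%, against 41.2% of the genes kept) and chlorocyanus the smallest in 36 (34.3%, against 36.2%). The part of library composition in these differences was not tested.

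**Figure D2:**
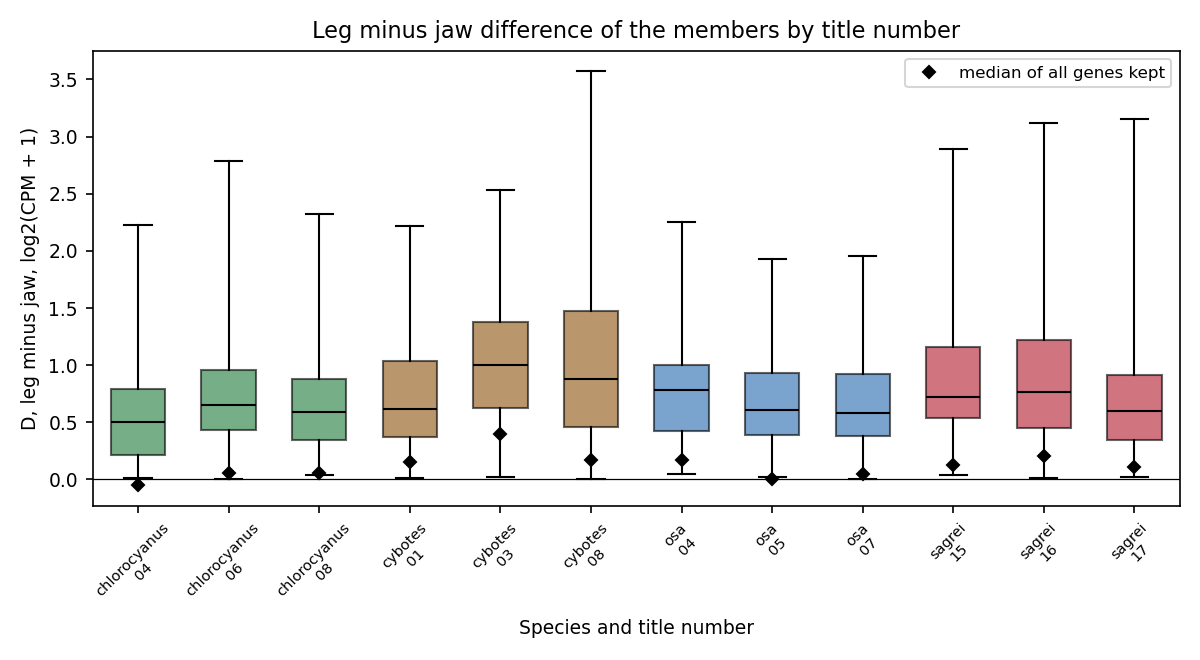
D of the 105 members in each of the 12 title numbers, coloured by species, as boxes of quartiles and median with whiskers to the lowest and highest member. Black diamonds give the median D of all 9123 genes kept. All members lie above 0, as the rule requires. Both the medians of the boxes and the diamonds are highest in cybotes 03 and lowest in chlorocyanus 04.

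The scaling bears on the choice. With TMM factors, which set the bulk of genes level between libraries, the median D of the genes kept was 0.0057, a shift by -0.13 from column totals. Under this scaling 54 of the 105 members were still above 0 in 12 of 12 numbers. The rule as a whole then chose 69 genes, of which 44 were members, that is 41.9% of the members and 63.8% of the 69. Relative to the genes kept, the median of the 105 members was 0.66 with TMM factors and 0.65 with column totals. A change of scaling shifts D of all genes of a title number nearly alike. The closeness of these values is therefore fixed in advance, and nothing is read from it. A pseudocount of 0.5 in place of 1 gave 88 genes, with 87 members among them. A pseudocount of 2 gave 135 genes, with 103 members among them.

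Over all species together the leg and jaw libraries of a member overlapped, as in most genes. In none of the 105 members did the lowest of the 12 leg libraries exceed the highest of the 12 jaw libraries, a pattern held by 0.302% of the 17232 genes with a count. Within a species, all 3 leg libraries lay above all 3 jaw libraries in at least 3 species for 16 members (15.2%, against 1.89% of all genes with a count). The rule used this contrast, and nothing is read from the difference. The separation was most frequent in cybotes, in 60 members, and least in chlorocyanus, in 18, with 47 in osa and 49 in sagrei. Over the 9123 genes kept it was also most frequent in cybotes (16.2%) and least in chlorocyanus (5.51%), with 11.2% in osa and 11% in sagrei. In 13 of the 105 members no species separated, against 6339 of the 9123 genes kept. In 1 member all 4 did, as in 0.633% of all genes with a count. That member had few reads, with a mean of 3.43 CPM.

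In edgeR's quasi-likelihood test of leg against jaw, with TMM scaling and 8 group means, 52 of the 100 members that passed the filter had a Benjamini-Hochberg adjusted p under 0.05, all higher in leg, where 6.58% of 9123 genes were called in that direction. With the title number as a block 96 of the 100 were called, against 13.3% of all genes. These counts describe the contrast that chose the members. The rule fixes their direction and favours an excess over all genes, so nothing is read from them. Without the block, the count of 52 became 33 without chlorocyanus 06, 29 without cybotes 08, 25 without osa 04, 30 without osa 05, 26 without sagrei 15 and 32 without sagrei 16. The share of all genes called higher in leg also fell in these fits, to 4.69% to 5.52%. The remaining 5 members, all under 10 CPM, did not pass the filter.

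ENSACAG00000016380, the member with the most reads, had a mean of 1281 ± 599 CPM over the leg libraries and of 895 ± 491 CPM over the jaw libraries (SD, n = 12). In cybotes its jaw libraries 01, 03 and 08 held 1877, 1265 and 1487 CPM and the leg libraries 2620, 1433 and 1504 CPM. In osa 04, 05 and 07 the jaw values were 1054, 960 and 599 CPM and the leg values 1460, 1585 and 1166 CPM. The muscles overlapped in cybotes and did not in osa. Sagrei 15, 16 and 17 had 935, 399 and 463 CPM in jaw and 1502, 853 and 799 CPM in leg. Chlorocyanus 04 and 06 had 861 and 727 CPM in jaw and 1403 and 915 CPM in leg, whereas the pair of chlorocyanus 08 stood at 111 and 127 CPM. Both libraries of that number were thus the lowest of their muscle. D ran from 0.016 in cybotes 08 to 1.09, with a mean of 0.55 ± 0.33 (SD, n = 12). With TMM factors its mean D was 0.41, under the edge of 0.5. The level over both muscles, the mean of the jaw and leg CPM of a number, was 1698 ± 483 CPM in cybotes, 1137 ± 221 CPM in osa, 825 ± 341 CPM in sagrei and 691 ± 519 CPM in chlorocyanus (SD, n = 3). These levels did not differ past the threshold (edgeR adjusted p = 0.295, 3 degrees of freedom). Differences between title numbers within species took 52.7% of the variance of this gene, the species 38.5% and the muscle 6.70%.

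Among the other members with the most reads, which were shown by rank without identifiers, the species with the largest leg excess changed from gene to gene. The member ranked 2 had jaw libraries at 468, 429 and 447 CPM in cybotes 01, 03 and 08, and leg libraries at 843, 1326 and 1415 CPM. In sagrei 15, 16 and 17 the same gene had 680, 843 and 791 CPM in jaw and 973, 1220 and 977 CPM in leg. Mean D was thus 1.38 in cybotes and 0.45 in sagrei, with no overlap of the muscles in either. The member ranked 3 was alike in this, with a mean D of 1.37 in cybotes and 0.57 to 0.66 in the means of the other species. The member ranked 6 went the other way, with a mean D of 1.5 in sagrei and 0.32 in cybotes. Its jaw and leg libraries held 442 and 447 CPM in cybotes 08, and 444 and 1732 CPM in sagrei 17.

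The narrowest sign among the 10 members with the most reads was that of the member ranked 9. In osa 04, 05 and 07 it had 477, 549 and 536 CPM in jaw and 491, 593 and 538 CPM in leg, so that jaw and leg overlapped and the mean D was 0.053. In cybotes 01, 03 and 08 it had 238, 316 and 290 CPM in jaw and 374, 656 and 707 CPM in leg, without overlap and with a mean D of 0.99. The most even of the 10 was the member ranked 7, whose D lay between 0.29 and 0.79 in all 12 numbers, around a mean of 0.55 ± 0.16 (SD, n = 12). Its levels still ranged from 302 to 967 CPM over the jaw libraries and from 415 to 1547 CPM over the leg libraries. A steady difference therefore came with unlike levels.

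**Figure D3:**
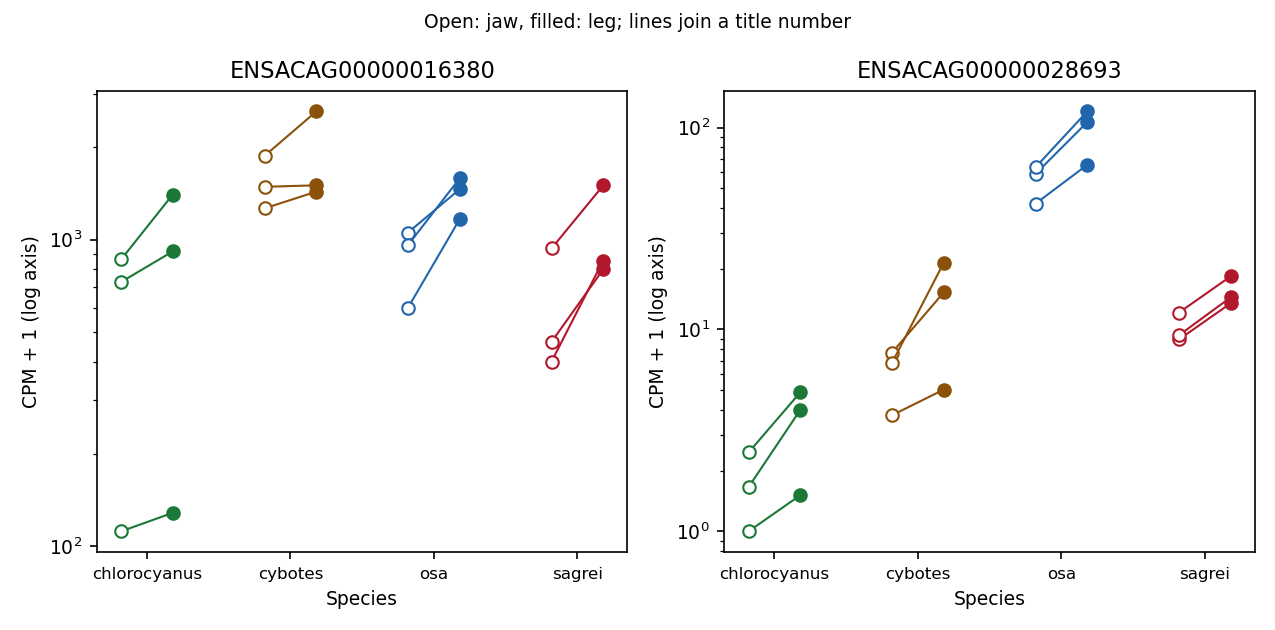
CPM + 1 on a log axis for the member with the most reads, ENSACAG00000016380, and for the member with the lowest species p, ENSACAG00000028693, by species. Open circles are jaw libraries, filled circles leg libraries, and a line joins the libraries of a title number. Every line goes up to leg, the chlorocyanus 08 pair at 111 and 127 CPM lies far below the rest of the former gene, and the osa libraries lie above all others in the latter.

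Whether the level of the members over both muscles differed between species was asked on 12 sums, each adding a number's jaw library to its leg library, with 3 sums a species. The rule does not use this level, but D above 0 in all 12 numbers needs reads in every leg library. It thus limits which species levels a member can have, above all where reads are few. By edgeR's quasi-likelihood test with 3 degrees of freedom, 40 of the 102 members tested differed (39.2%), close to the 43.8% of 9908 genes called. The 3 members not tested had the fewest reads. By class, 7 of 26 members under 10 CPM were called (26.9%, against 43.7% of all genes in the class), 26 of 55 from 10 to 100 CPM (47.3%, against 46.5%) and 7 of 21 over 100 CPM (33.3%, against 33.3%). The share was thus below that of all genes under 10 CPM and close to it in the other classes, and the difference was not tested. Under 10 CPM a library with 0 counts occurred in 11 of the 29 members and in 1312 of the 2825 genes kept. The part of the rule's need for reads in the lower share was not tested. With the jaw libraries alone 29 of 87 members tested were called (33.3%, against 42.6% of all genes) and with the leg libraries alone 31 of 99 (31.3%, against 33.5%). In both fits 22 members were called, all of them among the 40. The sums hold these same libraries, and the share of all genes called in both fits was not computed. Reads of 4 species were counted on 1 set of identifiers, so a sequence difference that alters mapping and a difference in expression cannot be told apart.

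The 40 called members differed in level by a median of 1.56 on the log2(CPM + 1) scale between the highest and the lowest species, and by at least 2 in 9 of them. In the 62 members tested and not called the median range was 0.74. The test that split these groups used the same levels, so a wider range in the called members follows from the split. No species led throughout. Among the called members osa and cybotes were each the highest in 11, chlorocyanus in 10 and sagrei in 8. Of the 4344 genes called in all, osa was the highest in 28.6%, cybotes in 20.3%, chlorocyanus in 31.3% and sagrei in 19.8%. Chlorocyanus was the lowest in 15 of the 40 members (37.5%, against 25.8% of all genes called) and cybotes in 10 (25%, against 29.0%). Sagrei was the lowest in 9 (22.5%, against 22.4%) and osa in 6 (15%, against 22.8%), and these shares were not tested against each other.

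**Figure D4:**
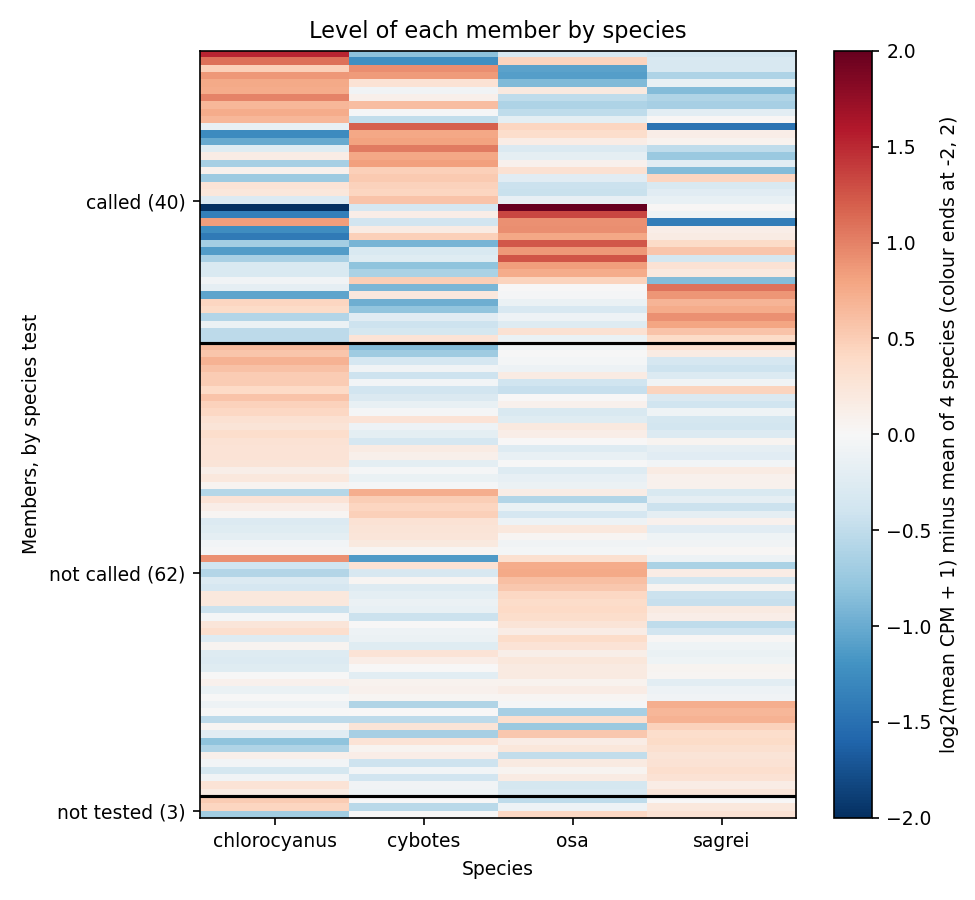
Level of each of the 105 members in each species, as log2(mean CPM + 1) minus the mean of the 4 species, in colour, with 1 row per member. Rows are grouped by the species test (40 called, 62 not called, 3 not tested) and by the species with the highest level. Strong colours lie mainly in the called block, which the test on these same levels favours, and where each species is the highest in 8 to 11 members.

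Between single pairs of species the members were called no more frequently than genes at large. Cybotes and chlorocyanus differed in 20 of the 102 members (14 higher and 6 lower in cybotes), against 21.9% of all genes, made up of 10.3% higher and 11.6% lower. Osa and chlorocyanus differed in 18 members (12 higher and 6 lower in osa), against 24.5% of all genes, 11.9% higher and 12.7% lower. Sagrei and chlorocyanus also differed in 18 (13 higher and 5 lower in sagrei), against 19.3% of all genes, 9.41% higher and 9.91% lower. The split between higher and lower was more even in the pairs without chlorocyanus. The pairs with chlorocyanus share its sums and are not independent of each other, and the split was not tested. Osa and cybotes differed in 17 members (7 higher and 10 lower in osa), against 19.4% of all genes, 9.89% higher and 9.48% lower. Sagrei and cybotes differed in 15 (7 higher and 8 lower in sagrei), against 15.6%, 8.07% higher and 7.55% lower. Sagrei and osa differed in 9 (4 higher and 5 lower in sagrei), against 13.6%, 6.49% higher and 7.15% lower. No pair was called in 61 of the 105 members, among them the 3 not tested. The share of all genes without a called pair was not computed, so nothing is read from this count. The count for cybotes and chlorocyanus was 13 without chlorocyanus 06, 11 without chlorocyanus 08, 10 without cybotes 03 and 12 without cybotes 08, where 13.3% to 14.7% of all genes were called. For osa and cybotes it was 11 without cybotes 01, 7 without cybotes 03, 10 without cybotes 08, 7 without osa 04, 11 without osa 05 and 8 without osa 07, against 11.6% to 13.6% of all genes. For sagrei and cybotes it was 8 without cybotes 03, 7 without sagrei 16 and 8 without sagrei 17, against 7.92% to 10.9% of all genes. For sagrei and osa it was 16 without chlorocyanus 08, where 17% of all genes were called, and 4 without osa 05, where 7.79% were. These fits were listed because the members' count moved by more than 1.5-fold. In them the counts and the shares of all genes moved in the same direction. Smaller moves were not all alike in this. For osa and chlorocyanus without cybotes 01 the count rose from 18 to 21, while the share fell from 24.5% to 24.3%.

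A smaller group stood apart from each of the other 3 species at once. It held 12 of the 102 members tested (11.8%), close to the 13.8% of 9908 genes called in that way. The count was defined after the pairs had been seen. Chlorocyanus was below each other species in 7 members (6.86%), where 2.33% of all genes were so called, and above each in 0, where 3.09% were. These shares were not tested against each other. The count of 7 was 3 without chlorocyanus 06 and 4 without either chlorocyanus 08 or cybotes 08, and the count of 12 was 5 without chlorocyanus 06. The shares of all genes fell as well, from 2.33% to between 1.1% and 1.69% in the former fits and from 13.8% to 9.2% in the latter. By the same edgeR tests of pairs, osa was above each other species in 2 members (2.08% of all genes), sagrei in 2 (1.1%) and cybotes in 1 (1.55%). Sagrei was below each other species in 1 member (1.03%), osa in 0 (1.61%) and cybotes in 0 (1.72%). A single gene was counted both for chlorocyanus and for osa.

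That gene was ENSACAG00000028693, the member with the lowest species p and the 60th in reads. Its osa libraries 04, 05 and 07 held 57.9, 62.6 and 41.0 CPM in jaw and 105, 119 and 64.3 CPM in leg. Its chlorocyanus libraries 04, 06 and 08 held 1.46, 0.657 and 0 CPM in jaw, from 2, 1 and 0 counts, and 3.88, 2.99 and 0.51 CPM in leg, from 6, 5 and 1 counts. Every osa library was above every library of the other species, and the chlorocyanus libraries were near the floor. In cybotes 01, 03 and 08 the jaw values were 2.76, 6.68 and 5.84 CPM and the leg values 4.03, 14.2 and 20.4 CPM. In sagrei 15, 16 and 17 they were 7.92, 8.36 and 11.1 CPM in jaw and 12.5, 13.4 and 17.3 CPM in leg. D lay between 0.42 and 1.64, its sign being set by the rule, and in chlorocyanus 08 it rested on 0 counts in jaw and 1 in leg. Over both muscles its level was 75 ± 19.9 CPM in osa, 11.8 ± 2.15 CPM in sagrei, 8.99 ± 5.02 CPM in cybotes and 1.58 ± 1.22 CPM in chlorocyanus (SD, n = 3). The edgeR adjusted p for species was 0.000117. On the log2 scale osa stood above chlorocyanus by 5.47 ± 0.62 (SE, edgeR adjusted p = 0.000142) and above cybotes by 2.89 ± 0.52 (SE, edgeR adjusted p = 0.00263). The log2 difference of sagrei from osa was -2.56 ± 0.51 (SE, edgeR adjusted p = 0.00552). Sagrei and cybotes, at 0.33 ± 0.52 (SE, edgeR adjusted p = 0.697), did not differ past the threshold. Both stood above chlorocyanus, cybotes by 2.57 ± 0.63 (SE, edgeR adjusted p = 0.0115) and sagrei by 2.91 ± 0.62 (SE, edgeR adjusted p = 0.00568). Species took 87.7% of the variance of this gene and the muscle 4.88%.

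Other members with a low species p showed different orders. The member sixth in reads had 1105 ± 176 CPM in osa, 888 ± 173 CPM in sagrei, 493 ± 65.5 CPM in cybotes and 281 ± 32.0 CPM in chlorocyanus (SD, n = 3, edgeR adjusted p = 0.000624). All 3 chlorocyanus jaw libraries, at 211, 179 and 177 CPM, lay below every other jaw library of that gene, and its chlorocyanus leg libraries, at 386, 421 and 311 CPM, below every other leg library. The 45th member had 55.0 ± 16.1 CPM in osa and 51.7 ± 12.2 CPM in chlorocyanus, against 21.8 ± 8.95 CPM in cybotes and 10.4 ± 1.26 CPM in sagrei (edgeR adjusted p = 0.000746). The 61st member was highest in cybotes, at 42.2 ± 2.03 CPM, and lowest in sagrei, at 5.76 ± 3.03 CPM (edgeR adjusted p = 0.00181). The eighth in reads stood at 1088 ± 26.7 CPM in sagrei and at 382 to 537 CPM in the means of the other species (edgeR adjusted p = 0.00288).

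Chlorocyanus was the lowest species in other members of this kind. The 29th member had 22.7 ± 1.70 CPM in chlorocyanus, against 61.8 ± 13.0 CPM in cybotes, 60.6 ± 21.2 CPM in sagrei and 106 ± 13.1 CPM in osa (SD, n = 3, edgeR adjusted p = 0.00122). The 42nd member had 15.5 ± 5.15 CPM in chlorocyanus, and was highest in sagrei, at 62.2 ± 7.66 CPM (edgeR adjusted p = 0.00142). Osa stood apart in the 47th member, with 64.1 ± 16.6 CPM against 16.4 to 22.2 CPM in the means of the other species (edgeR adjusted p = 0.00162). Its osa leg libraries held 88.8, 98.1 and 64.9 CPM and its osa jaw libraries 44.7, 60.3 and 27.8 CPM. In this gene every jaw library of osa exceeded every jaw library of the other species. At the other extreme, the 88th member, chosen for its small range after the values were seen, had species means of 7.42 to 7.94 CPM (edgeR adjusted p = 0.943).

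Levels also varied between title numbers of a species. As the SD of the number's mean log2(CPM + 1) over jaw and leg, within species, the spread had a median of 0.48 over the members and 0.47 over the genes kept. It was wider than in genes kept of the same class over 100 CPM, at 0.49 against 0.36, and narrower under 10 CPM, at 0.45 against 0.55. The range between species had a median of 0.95 over the members and 1.16 over the genes kept. These medians carry no test. Chlorocyanus 08 was the highest number of its species in 64 members and sagrei 17 in 64. The same numbers were the highest in 61.7% and 51.3% of the genes kept. Both chlorocyanus 08 libraries also had the highest TMM factors, 1.298 in jaw and 1.317 in leg, and the part of this in the members' levels was not tested.

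Some members with many reads moved strongly from number to number. The member ranked 4 in reads had 104, 179 and 976 CPM in the jaw libraries of chlorocyanus 04, 06 and 08 and 222, 717 and 2054 CPM in their leg libraries. In osa 04, 05 and 07 it had 1176, 162 and 1575 CPM in jaw and 1787, 250 and 2304 CPM in leg. The jaw and leg libraries of a number were low or high together, and leg was the higher in each. The 22nd member, which had the widest spread of the 105 (SD 1.24), held 315 and 427 CPM in the jaw and leg of chlorocyanus 08, against 21.9 and 26.5 CPM in those of chlorocyanus 04. At the other end, the second member in reads had the narrowest spread, 0.15. Its jaw libraries ranged from 429 to 1021 CPM and its leg libraries from 843 to 1608 CPM, with all 3 leg libraries above all 3 jaw libraries in 3 species. Its species means lay between 821 and 1181 CPM and did not differ past the threshold (edgeR adjusted p = 0.657).

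The spread of D itself was set against counting error. The SD of D within species had a median of 0.58 under 10 CPM, 0.41 from 10 to 100 CPM and 0.30 over 100 CPM. Counting alone, by Poisson error of both libraries, would give 0.61, 0.35 and 0.12. The ratio of observed to counting SD had a median of 0.973, 1.30 and 3.26 in the 3 classes. It was above 2 in 17 of the 21 members over 100 CPM and in 0 of the 29 under 10 CPM. Of the genes kept, 65.0% over 100 CPM and 4.25% under 10 CPM were above 2. The rule, by asking for the same sign in every number, limits this spread, and the values are a description. Counting error covers sampling of reads only. For each member the variance of log2(CPM + 1) was split into its sources, and the medians over members were 28.5% for species, 28.1% for title number, 27.7% for muscle, 2.62% for the species-by-muscle term and 5.30% for the rest. Over the genes kept the medians were 42.2% for species, 29.7% for title number, 2.72% for muscle, 4.47% for the species-by-muscle term and 8.14% for the rest. The rule selects for a high share of muscle, which lowers the other shares of a member, so nothing is read from these differences.

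**Figure D5:**
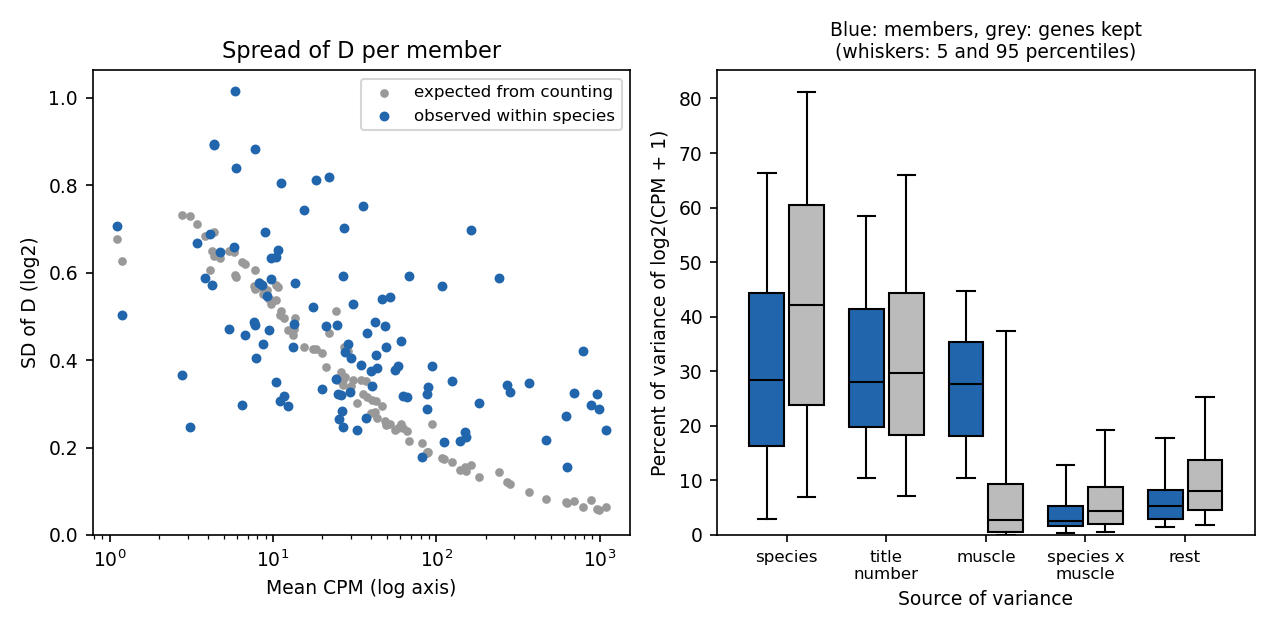
Left, SD of D within species for each of the 105 members (blue) and the SD expected from counting error (grey) against mean CPM on a log axis. Right, percent of the variance of log2(CPM + 1) by source for members (blue) and for the 9123 genes kept (grey), as boxes of quartiles with whiskers at the 5 and 95 percentiles. The observed SD meets the counting SD under 10 CPM and lies above it for the members over 100 CPM.

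The mirror rule, with D below 0 in 12 of 12 numbers and a mean D above -1 and up to -0.5, chose 84 genes higher in jaw. These had more reads, with a median of 104 CPM against 26.8 CPM for the members higher in leg, and 50.0% of them lay over 100 CPM against 20%. Their spread of level between title numbers had a median of 0.33 against 0.48. Species differences were called in 33 of 82 genes tested (40.2%), against 39.2% of the members. The 288 genes above 0 in 12 of 12 numbers with a mean D of at least 1 had a median of 18.9 CPM and 35.3% called for species. No difference between these sets was tested. Over the genes kept, median mean D was above 0 in each class of reads, at 0.21, 0.12 and 0.050 from low to high. The mirror cut at -0.5 thus lay farther from these medians than the cut at 0.5, most so where reads were few. The part of this offset in the larger reads of the genes higher in jaw was not tested.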

How the data were processed

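Per the labels' protocols, Trizol was used to extract RNA from the whole muscle, and BGI prepared the libraries. STAR, an aligner, is named without a version, per the submitters' processing notes. The genome build, annotation, counter and strand setting were not given in the sources used here. Reads shared by overlapping or near-identical genes may be split. The file is 1 count table as the authors deposited it, not normalized, and its 24 columns carry the sample titles.

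The members and gene lists were chosen with earlier results of these data known. The lists, by symbol, were not used, since the table has no symbols. For the same reason only 2 identifiers were named: the member with the highest mean CPM and the one with the lowest species p among those with at least 5 CPM. Other members shown are, by rank, among the 10 with the most reads, the 8 with the lowest species p or the 5 with the widest spread, as the rule for genes with symbols would take them. The 88th, with the smallest species range, the member with the highest ratio and the member that separated in 4 species were added after their values were seen.

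D used column totals and a pseudocount of 1. Tests used edgeR 4.0.16 in R 4.3.3 (filterByExpr, TMM, quasi-likelihood F-test, Benjamini-Hochberg adjustment over all genes tested, threshold 0.05). Species were compared on 12 sums of a title number. SE is the absolute log2 fold change over the square root of F. DESeq2 1.42.0 was an alternative. The labels do not say that a title number is an animal. Deviations of jaw and leg from their group means correlated, over genes, at 0.294 to 0.735 within a number in the 12 pairs, so the numbers were taken to pair the libraries. Correlations between unlike numbers were not computed. A shared animal and a shared library composition or batch cannot be told apart by these values. Since nothing in the labels tells how replicates were taken, p-values reflect only sample-to-sample spread, which may be technical. The scripts were tested on simulated counts, drawn independently for each library and with no effect of the title number. That run therefore says nothing on the pairing or the block.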

Additional observations from a re-analysis of the deposited data

How the results depend on the processing

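The rule chose 69 genes with TMM scaling in place of 105. It chose 71 with median-ratio scaling, 49 of them members, and 77 with totals free of the 20 genes with the most reads, 65 of them members. With 1 title number left out and the rule asked of the other 11, it chose 117 to 139 genes. With the title number as a block, members called for leg against jaw were 96 in place of 52, with 13.3% of all genes in place of 6.58%. The paired fit was not applied to species, since title numbers do not pair across species. Leaving out 1 title number gave 25 to 47 for leg against jaw, where 4.69% to 6.55% of all genes were called higher in leg.

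Members called for species were 29 to 43 of those tested when 1 number was left out, where 35.1% to 45.9% of all genes were called. By pair the ranges were 10 to 20 for cybotes and chlorocyanus, 12 to 21 for osa and chlorocyanus, 12 to 23 for sagrei and chlorocyanus, 7 to 21 for osa and cybotes, 7 to 20 for sagrei and cybotes and 4 to 16 for sagrei and osa. In that order the shares of all genes called were 13.3% to 22.8%, 15.8% to 25.1% and 12.5% to 19.5% for the pairs with chlorocyanus. For the pairs without it they were 11.6% to 22.3%, 7.92% to 18.8% and 7.65% to 17%. The count apart from each other species was 5 to 13, where 9.05% to 14.7% of all genes were so called. That below each other species in chlorocyanus was 3 to 7, where 1.1% to 2.68% of all genes were. For cybotes and chlorocyanus the count was 13 with jaw libraries alone and 12 with leg libraries alone, in place of 20. The shares of all genes were 20.6% and 16.7%, in place of 21.9%. For sagrei and cybotes the count was 9 with jaw alone in place of 15, with 15.7% of all genes in place of 15.6%. Jaw alone had 87 members tested and leg alone 99, in place of 102. For sagrei and osa the count was 15 with DESeq2, 14 without a low-count filter and 5 with leg alone, in place of 9. In that order 17.2%, 9.52% and 7.38% of all genes were called, in place of 13.6%. With jaw alone 5 members stood apart from each other species in place of 12, and 3 were lowest in chlorocyanus in place of 7. The shares of all genes for these counts with jaw alone were not computed. Fits on 1 muscle rest on fewer counts per sample, and the cause of any of these changes was not tested. Mean D of both named members moved by less than the SD over title numbers in every alternative run, and neither species call crossed the threshold. Alternatives for the counts of members apart, and 2 scalings for the named members, were chosen after seeing the data. Depth limits the 29 members under 10 CPM most.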
